A study of Homo sapiens with 4 samples.

Results

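The genes described here are 9 complement genes that liver cells are known to transcribe: C3, C5, C8A, C9, C1R, C1S, CFB, CFI and C4BPA. They were chosen by name, and all 9 were found among the 32479 genes of the deposited expression table through their GENCODE symbols. The study sequenced RNA from 2 human liver cancer lines, each left untreated for 24 h or exposed to 20 uM PF-429242 for 24 h, with 1 library in each of the 4 groups. HepG2 is a line derived from a hepatoblastoma, and PLC/PRF/5 comes from a hepatoma and has hepatitis B virus DNA in its genome. The labels give both as wild type, and both were kept in the same serum-containing medium. PF-429242, written PF429242 in the sample labels, blocks site-1 protease, a Golgi protease encoded by MBTPS1. Cleavage by this protease is a step in the release of the SREBP and ATF6 transcription factors from membranes. The labels name no vehicle in the controls. Both are tumour lines and not primary hepatocytes.

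Complement is a cascade of plasma proteins, most of them secreted by hepatocytes, that marks microbes and damaged cells and can pierce membranes. The proteases C1r and C1s start the classical pathway and factor B carries the protease of the alternative pathway; both routes cleave C3 and then C5, and C8 and C9 complete the membrane attack complex. Factor I and C4b-binding protein hold the cascade in check by inactivating C3b and C4b. In the liver many of these genes belong to the acute phase response driven by interleukin-6 and interleukin-1.

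Expression was given as FPKM, a fragment count divided by gene length and library total, so levels of different genes can be compared on this scale. The libraries held between 16722204 and 21387301 counted fragments. Mitochondrial genes took 16.6% and 21.3% of the fragments in the HepG2 and PLC/PRF/5 controls and 27.6% and 28.2% in the treated libraries, and FPKM is relative to all fragments counted, mitochondrial ones included. All 10 hepatocyte markers reached 1 FPKM, with sums of 6814, 6009, 3310 and 3322 FPKM in untreated and treated HepG2 and then untreated and treated PLC/PRF/5. Of 9 macrophage markers 4 were listed and none reached 1 FPKM, with sums between 0.211 and 0.749 FPKM, and none of 5 stellate cell and fibroblast markers did. Of 5 endothelial markers PECAM1 reached 1 FPKM, and of 4 leukocyte markers ITGB2 did, with sums of 0.916 to 1.46 and 0.191 to 1.24 FPKM for these lists. With 1 library a group, none of the treatment ratios could be checked on replicates, and the intervals in this text are 95% counting intervals from recovered fragments. They hold counting error alone and so compare 2 libraries rather than 2 conditions, and PCR copies of 1 molecule cannot be recognised here. In such bulk RNA, fewer cells that transcribe a gene and less RNA per cell cannot be told apart.

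Both control lines transcribed C3 far above the other members, but the lines differed in the rest of the set. C3 (chromosome 19, 6677704 to 6730562, minus strand), the protein on which all complement pathways converge, stood at 295 FPKM in the HepG2 control and 134 FPKM in the PLC/PRF/5 control, a ratio of 2.20 (2.17 to 2.24). C5 (chromosome 9, 120952335 to 121050276, minus strand), the source of the anaphylatoxin C5a and of the first part of the membrane attack complex, was the reverse, at 9.43 FPKM in HepG2 and 33.3 FPKM in PLC/PRF/5. That made C5 3.53-fold higher in PLC/PRF/5 (3.30 to 3.78), and the ratio of C3 to C5 was 31.3 in the HepG2 control and 4.03 in the PLC/PRF/5 control. These are differences between 2 libraries, from 41133 and 23900 fragments for C3 and 1030 and 4656 for C5.

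The remaining liver components were mostly HepG2 transcripts. C8A (chromosome 1, 56854806 to 56918221, plus strand), which encodes the alpha chain of C8, stood at 4.04 FPKM in the HepG2 control and 0.714 FPKM in the PLC/PRF/5 control, a ratio of 5.65 (3.91 to 8.35). CFI (chromosome 4, 109740694 to 109802179, minus strand), the serine protease that cleaves C3b and C4b, was at 9.32 and 0.959 FPKM, the widest gap of the set at 9.72-fold (7.88 to 12.1). C4BPA (chromosome 1, 207104262 to 207144972, plus strand), the alpha chain of C4b-binding protein and a cofactor of factor I, was at 14.3 and 3.14 FPKM, a ratio of 4.54 (3.81 to 5.42). The factor B gene CFB (chromosome 6, 31945650 to 31952084, plus strand) was at 1.70 and 0.337 FPKM, a ratio of 5.04 (3.48 to 7.49).

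The paired classical-pathway proteases did not separate the control lines. C1S (chromosome 12, 6988259 to 7071032, plus strand) stood at 1.76 FPKM in HepG2 and 2.07 FPKM in PLC/PRF/5, a ratio of 0.850 whose interval held 1 (0.704 to 1.02). C1R (chromosome 12, 7080199 to 7092607, minus strand) was low in both, at 0.346 and 0.294 FPKM, from 34 and 37 fragments (ratio 1.18, 0.716 to 1.92). C9 (chromosome 5, 39284262 to 39424868, minus strand), which forms the ring of the membrane attack complex, gave 1 fragment in the HepG2 control and 0 in the other 3 libraries. A count of 0 there allows a level of up to 0.0491 FPKM for treated HepG2, and of 0.0467 and 0.0588 FPKM for the control and treated PLC/PRF/5 libraries, taking 3 fragments as the limit, so C9 was not detectable at this depth beyond that single fragment. Its gene model shares 53194 bases with DAB2 on the same strand, an endocytic adaptor at 6.92 FPKM in the HepG2 control.

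Of the 7 members with at least 1 FPKM in either control, 5 were 2-fold or more higher in HepG2 (C3, C8A, CFB, CFI and C4BPA) on the scale of log2(FPKM + 1), where the share of all 13861 genes so measured was 10.0%. Only C5 among those 7 was 2-fold or more lower, against 13.1% of all genes. Of the controls, C8A, CFB and CFI reached 1 FPKM in HepG2 alone, so they were measured through the line where they are higher. The count is therefore a description. The members' median log2 ratio was 1.13, beside -0.06 for all genes. With no filter it was 1.01 over 9 members, beside -0.03 for all genes. The hepatocyte markers differed in the same comparison, with 7 of 10 at least 2-fold higher in HepG2, 2 at least 2-fold lower and a median of 1.61; the part of this in the members' difference was not tested.

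**Figure D1:**
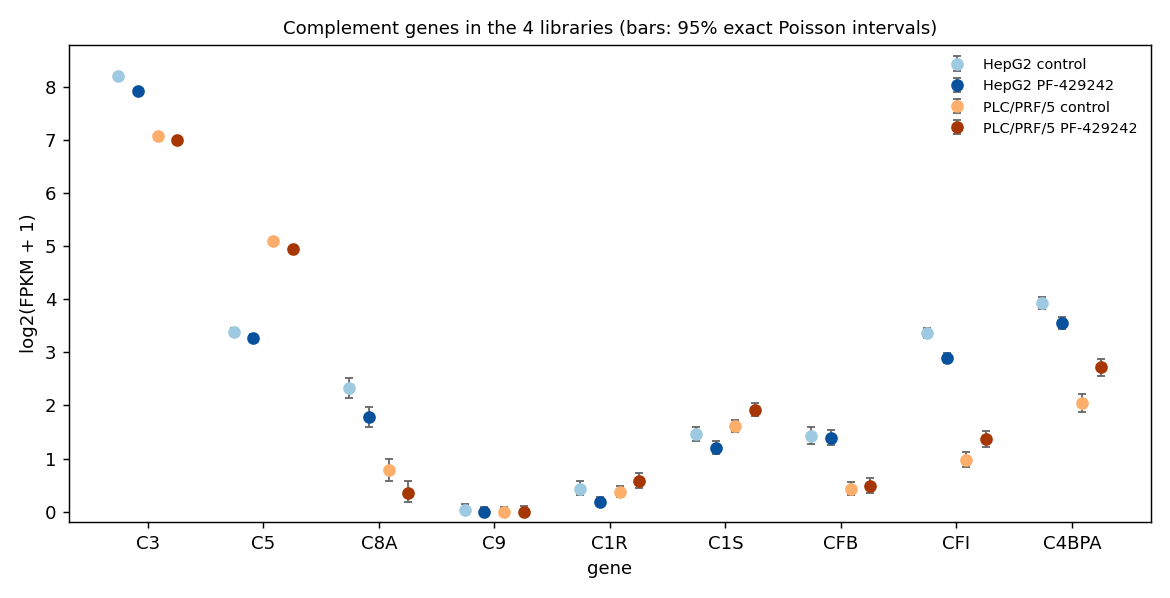
Levels of the 9 complement genes as log2(FPKM + 1) on the vertical axis, 1 point for each of the 4 libraries, with bars for 95% exact Poisson intervals of the recovered fragments. C3 is highest in every library, C5 is higher in both PLC/PRF/5 libraries, and C8A, CFI, C4BPA and CFB are higher in both HepG2 libraries.

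Within a library the order of the levels was much the same with and without the inhibitor. In the HepG2 control the order ran C3, C4BPA, C5, CFI, C8A, C1S, CFB, C1R and C9, and the counting intervals of C5 and CFI overlapped, as did those of C1S and CFB. In treated HepG2 CFB stood above C1S, again with overlapping intervals. The PLC/PRF/5 control ran C3, C5, C4BPA, C1S, CFI, C8A, CFB, C1R and C9, with overlap between CFI and C8A and between CFB and C1R. In treated PLC/PRF/5 C8A was last but for C9, behind C1R and CFB, and its interval overlapped that of CFB. C3 made up 87.8% and 88.5% of the members' summed FPKM in control and treated HepG2 and 76.7% and 75.7% in control and treated PLC/PRF/5.

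**Figure D2:**
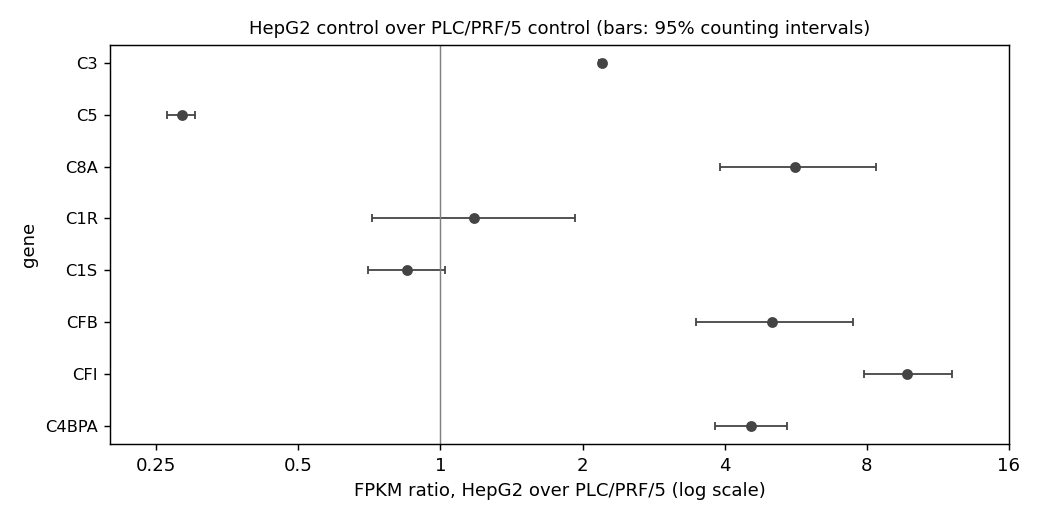
Ratio of FPKM in the HepG2 control to the PLC/PRF/5 control for 8 members, on a log axis, with 95% counting intervals as bars; C9, with 1 and 0 fragments, is not drawn. C5 alone lies well below 1 at 0.283, C1R and C1S have intervals that hold 1, and the other 5 lie between 2.20 and 9.72.

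After PF-429242 the HepG2 library held less of most members. All 7 members with at least 1 FPKM were below their control value on the deposited scale, but none by 2-fold or more. Of the 12347 genes measured in HepG2, 2.14% were 2-fold or more lower and 1.0% 2-fold or more higher. The members' median log2 ratio was -0.29, and that of all genes was -0.17, with 17.6% of all genes above 0. With scaling by the median of ratios, which placed the all-gene median at 0.005, 2 of the 7 members (C5 and CFB) were above their control and 5 below. Their median was -0.13, and 51.1% of all genes were above 0.

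In PLC/PRF/5 the members divided. Of the 5 with at least 1 FPKM, C1S, CFI and C4BPA were above their control and C3 and C5 below, and none differed by 2-fold or more on the log2(FPKM + 1) scale. CFI passed 1 FPKM only in the treated library, and of the members left out C1R and CFB were above control and C8A below. Among the 13144 genes measured in this line, 1.48% were 2-fold or more higher and 1.82% 2-fold or more lower. The members' median was 0.30, beside -0.13 for all genes, 29.1% of which were above 0. Scaled to equal sums of FPKM (the TPM scale), where the all-gene median was -0.43, 3 of 6 members were above 0 and the median was -0.16. On that scale 13.9% of all genes were above 0. With median-of-ratios scaling 4 of 5 members were above 0 (median 0.38), beside 45.7% of all genes. With totals over nuclear genes 4 of 5 were above 0 (median 0.42), beside 47.0% of all genes.

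C3 and C5 differed little from their controls. C3 stood at 295 FPKM in control and 241 FPKM in treated HepG2 (ratio 0.817, 0.806 to 0.829) and at 134 and 128 FPKM in PLC/PRF/5 (0.954, 0.936 to 0.972). The counting intervals were narrow because C3 had 18102 to 41133 fragments, yet across 4 scalings the PLC/PRF/5 ratio ran from 0.756 to 1.05 and so took either direction. C5 stood at 9.43 and 8.63 FPKM in HepG2 (0.916, 0.841 to 0.997) and at 33.3 and 30.0 FPKM in PLC/PRF/5 (0.899, 0.860 to 0.940). Its HepG2 ratio also took either direction, from 0.727 to 1.06, and its PLC/PRF/5 ratio stayed below 1, from 0.713 to 0.985.

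C8A was lower with the inhibitor in both lines under all 4 scalings. It stood at 4.04 FPKM in control and 2.46 FPKM in treated HepG2, from 159 and 118 fragments, a ratio of 0.610 (0.476 to 0.779). In PLC/PRF/5 it stood at 0.714 and 0.275 FPKM, from 36 and 11 fragments, a ratio of 0.385 (0.177 to 0.773). Both PLC/PRF/5 values lay under 1 FPKM, and the wide interval of that ratio reflects its few fragments.

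The initiating proteases went opposite ways in the 2 lines. C1R was at 0.346 FPKM in control and 0.134 FPKM in treated HepG2 (ratio 0.387, 0.199 to 0.720), and at 0.294 and 0.491 FPKM in PLC/PRF/5 (1.67, 1.07 to 2.63). These rest on 16 to 49 fragments per library. C1S was at 1.76 and 1.30 FPKM in HepG2 (0.740, 0.598 to 0.914) and at 2.07 and 2.78 FPKM in PLC/PRF/5 (1.34, 1.14 to 1.58). Treated HepG2 was thus the lowest library, and treated PLC/PRF/5 the highest, for C1R and for C1S. C1R and C1S lie 9166 bases apart on opposite strands. The C1S gene model shares 9170 bases with EMG1 on its own strand and 30252 with LPCAT3 on the other. C1R shares 3021 bases with C1RL on its own strand. Strand does not separate EMG1 from C1S or C1RL from C1R, and the sources used here do not say whether counting used strand. Fragments in shared stretches could thus have been assigned to either gene. EMG1, a ribosome assembly factor, stood at 7.77 and 1.26 FPKM in control and treated PLC/PRF/5, the reverse of C1S, and at 5.81 and 4.67 FPKM in HepG2, on the same side as C1S. LPCAT3, a lysophospholipid acyltransferase, stood at 4.41 and 2.54 FPKM in HepG2 and 4.26 and 2.62 FPKM in PLC/PRF/5. C1RL stood at 6.08 and 5.60 FPKM in control and treated HepG2 and at 5.18 and 5.33 FPKM in PLC/PRF/5. The part of these overlaps in the C1S and C1R values was not tested.

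CFB showed no difference that its fragments could resolve. It stood at 1.70 FPKM in control and 1.62 FPKM in treated HepG2 (ratio 0.955, 0.758 to 1.20), and at 0.337 and 0.401 FPKM in PLC/PRF/5 (1.19, 0.722 to 1.96). Both intervals held 1, and both directions turned with the scaling. The gene model AL645922.1, on the same strand, shares 6399 bases with CFB and 17975 with C2. It is not among the genes listed in the expression table, and its part in the CFB values was not tested.

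The regulators CFI and C4BPA were lower with the inhibitor in HepG2 and higher in PLC/PRF/5 under all 4 scalings. CFI stood at 9.32 FPKM in control and 6.47 FPKM in treated HepG2 (ratio 0.694, 0.624 to 0.772), and at 0.959 and 1.58 FPKM in PLC/PRF/5 (1.65, 1.26 to 2.16). C4BPA stood at 14.3 and 10.7 FPKM in HepG2 (0.752, 0.668 to 0.847), and at 3.14 and 5.58 FPKM in PLC/PRF/5 (1.78, 1.45 to 2.18). For both genes the gap between the lines was thus narrower in the treated libraries, while each HepG2 library stayed above each PLC/PRF/5 library. CFI shares 61306 bases with the gene model AC126283.2 on its own strand, which is not listed in the expression table. The part of this overlap in the CFI values was not tested. The neighbouring C4BPB, 4268 bases from C4BPA, encodes the beta chain of the same protein and had nearly the same profile, with 13.8, 11.0, 3.43 and 5.81 FPKM in control and treated HepG2 and in control and treated PLC/PRF/5. The ratio of C4BPA to C4BPB stayed between 0.915 and 1.04 in the 4 libraries.

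**Figure D3:**
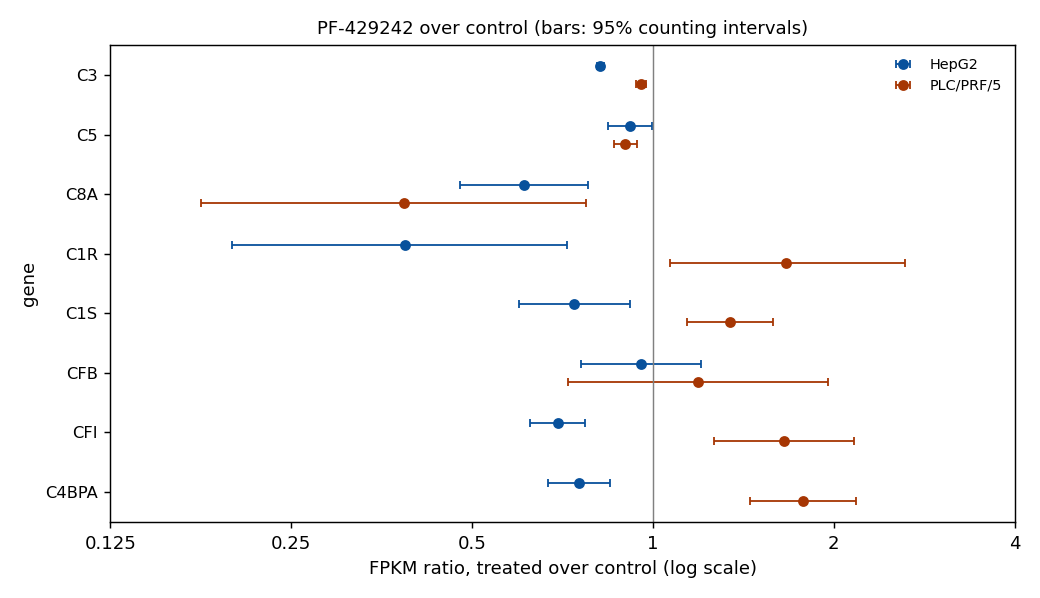
Ratio of FPKM with PF-429242 to control for 8 members in each line, on a log axis, with 95% counting intervals as bars; C9 is not drawn. C1R, C1S, CFI and C4BPA lie below 1 in HepG2 and above 1 in PLC/PRF/5, C8A lies below 1 in both, and under other scalings C3 in PLC/PRF/5, C5 in HepG2 and CFB in both lines change side.

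The difference between the lines in the log2 ratio of treated to control was taken for each member, as PLC/PRF/5 minus HepG2, with no pseudocount and with an interval from the counting error of all 4 libraries. It was 1.24 for C4BPA (0.91 to 1.57) and 1.25 for CFI (0.84 to 1.65). C1S gave 0.86 (0.48 to 1.24) and C1R 2.11 (1.05 to 3.16), but on log2(FPKM + 1) these were 0.56 and 0.45, since C1R lies under 1 FPKM. For C3 the difference was 0.22 (0.19 to 0.26), and 0.13 with median-of-ratios scaling. The intervals of C5 (-0.16 to 0.11), C8A (-1.70 to 0.37) and CFB (-0.43 to 1.07) held 0. No p-value is given, because 4 single libraries leave no residual degree of freedom for this difference. ALB, the main secretory product of hepatocytes, shared the PLC/PRF/5 side of this pattern. It stood at 624 FPKM in control and 1148 FPKM in treated PLC/PRF/5 and at 2586 and 2421 FPKM in HepG2. AHSG stood at 112 and 222 FPKM in PLC/PRF/5, whereas the fibrinogen gene FGA was at 711 and 449 FPKM. Of the 10 hepatocyte markers 6 were above and 4 below control in that line, where 29.1% of all genes were above 0. In HepG2 1 of the 10 was above and 9 below control, where 17.6% of all genes were above 0. Some markers thus showed both sides of the pattern on the deposited scale. APOA1 had ratios of 0.720 in HepG2 and 1.49 in PLC/PRF/5, TTR 0.834 and 1.69, and TF 0.737 and 1.07. The part of these markers in the members' values was not tested.

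The upstream sequences of 3 members are shown, for 3 of the patterns seen. With treatment C4BPA was lower in HepG2 and higher in PLC/PRF/5, and C8A was lower in both. C5 was higher in the PLC/PRF/5 control and little different with treatment. None is printed for C3 and CFB, which were higher in the HepG2 control. Promoter entries from RefSeq (build GRCh38.p14) were found by symbol for 7 of the 9 members, and not for C3 and C1S. The 250 bases before the start are printed 5′ to 3′ on the gene's strand, with capitals for matches to the motifs named after them. The windows are chr1:207103983-207104232 (plus strand) for C4BPA, chr1:56854547-56854796 (plus strand) for C8A and chr9:121050276-121050525 (minus strand) for the downstream start of C5.
C4BPA: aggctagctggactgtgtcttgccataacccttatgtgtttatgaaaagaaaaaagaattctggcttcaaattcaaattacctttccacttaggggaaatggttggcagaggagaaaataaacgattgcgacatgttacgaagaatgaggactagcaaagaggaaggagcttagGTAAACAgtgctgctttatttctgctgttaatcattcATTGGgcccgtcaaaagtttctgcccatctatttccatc
C8A: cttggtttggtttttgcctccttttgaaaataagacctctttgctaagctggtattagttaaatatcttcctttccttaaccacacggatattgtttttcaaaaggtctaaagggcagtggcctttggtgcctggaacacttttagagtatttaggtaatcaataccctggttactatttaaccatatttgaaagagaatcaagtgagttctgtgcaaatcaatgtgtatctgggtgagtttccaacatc
C5: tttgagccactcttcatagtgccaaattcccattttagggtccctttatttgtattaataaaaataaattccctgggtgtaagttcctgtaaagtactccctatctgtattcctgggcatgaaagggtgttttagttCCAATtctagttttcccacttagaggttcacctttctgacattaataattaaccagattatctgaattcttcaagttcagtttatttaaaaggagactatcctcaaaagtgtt

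Searched on both strands in these windows were a C/EBP motif (TTGCNNAA), a STAT motif (TTCNNNGAA), an NF-kB motif (GGGANTTTC), the NF-Y box (CCAAT), a forkhead motif (TNTTTAC), the sterol regulatory element (TCACCCCAC), the endoplasmic reticulum stress element (CCAAT, then CCACG after a gap of 9 bases) and a TATA box (TATAAA). C4BPA held an NF-Y box 39 to 35 bases before the start and a forkhead match at 76 to 70. The downstream C5 start held an NF-Y box at 113 to 109. C8A held no match to any of them. Of 35116 promoter windows of this length, 32.0% held the NF-Y box and 9.58% the forkhead motif. Among the members not printed, CFB held a STAT match 92 to 84 bases before its start and a TATA box at 30 to 25, and 6.57% and 10.7% of all windows held these motifs. CFI held an NF-Y box at 199 to 195. C1R held C/EBP matches upstream of both of its listed starts, at 106 to 99 and 167 to 160, and 9.05% of windows held that motif; the downstream start also had a STAT match at 86 to 78. No printed or unprinted member window held the sterol regulatory element (0.362% of all windows), the endoplasmic reticulum stress element (0.074%), which contains the NF-Y box, or the NF-kB motif (1.12%). A match is a description of letters and not evidence of binding.

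An effect of treatment shared by the lines was tested with limma on log2(FPKM + 1), taking cell line as a block and the 2 lines in place of replicates. No gene of 12838 passed an adjusted p of 0.05 (0.0% called; 2488 had an unadjusted p under 0.05, and limma-voom on the recovered fragments also called 0). Of the 7 members tested, C8A had the lowest adjusted p in limma, 0.205, with a log2 change of -0.48 (SE 0.13) and a lower value in both lines. C3 and C5 had log2 changes of -0.18 (SE 0.10) and -0.13 (SE 0.07). The log2 change was 0.14 for C4BPA, -0.03 for CFI, 0.02 for C1S and 0.01 for CFB. For these genes the unlike ratios of the lines enter as spread, and the 95% half-width was 0.76 for C4BPA and 0.66 for CFI. On the TPM scale alone, which placed the all-gene median at -0.48 in HepG2 and -0.43 in PLC/PRF/5, limma called 4987 of 16340 genes, among them C3 (adjusted p 0.0371), C5 (0.034) and C8A (0.0402); over all settings the adjusted p reached 1.0 for each.

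Of 45 further complement genes, 33 were listed in the table and 23 reached 1 FPKM in at least 1 library. In HepG2, 5 of the 20 measured were above control and 15 below, with a median log2 ratio of -0.23, where 17.6% of all genes were above 0. With median-of-ratios scaling 9 were above and 11 below (median -0.07), beside 51.1% of all genes above 0. With totals over nuclear genes 10 of 21 were above (median -0.05), beside 49.0% of all genes. In PLC/PRF/5, 9 of 17 were above and 8 below, with a median of 0.03, where 29.1% of all genes were above 0 (median -0.13). On the TPM scale 10 of 22 were above (median -0.27), beside 13.9% of all genes (median -0.43). Some of these passed 1 FPKM only in the treated library, so the count is a description. Between the controls, 10 of 23 were at least 2-fold higher in HepG2 and 5 at least 2-fold lower, beside 10.0% and 13.1% of all genes, with a median of 0.91. Among the higher ones, C2, C4A, C4B, MBL2, MASP1, COLEC11 and C8B reached 1 FPKM in the HepG2 control alone. Among the lower ones, CFD, C8G, SERPING1 and C5AR1 did so in the PLC/PRF/5 control alone. These counts are descriptions too.

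Among the genes that start the classical and lectin pathways, 9 were listed in the table. In PLC/PRF/5, C2, C4A, C4B, MASP1, MASP2 and COLEC11 were above control on the deposited scale, and MBL2 was below. C1RL had a ratio of 1.03 whose interval held 1 (0.907 to 1.17), and the remaining gene had no fragment in this line. C2, MASP1 and COLEC11 reached 1 FPKM there only in the treated library, so a count over genes past that level would favour higher values and is not given. C2, the protease that forms the classical C3 convertase with C4 and lies next to CFB with 23 shared bases, stood at 0.898 FPKM in control and 2.03 FPKM in treated PLC/PRF/5 (ratio 2.26, 1.77 to 2.89). In HepG2 C2 stood at 5.64 and 5.07 FPKM (0.899, 0.797 to 1.01), so the ratio of C2 to CFB was 3.32, 3.12, 2.67 and 5.06 in the 4 libraries. MASP1, a lectin-pathway protease, was higher in both lines, at 3.50 and 4.87 FPKM in HepG2 (1.39, 1.27 to 1.52) and 0.512 and 1.46 FPKM in PLC/PRF/5 (2.86, 2.34 to 3.50). COLEC11, a lectin that recruits such proteases, stood at 0.656 and 1.31 FPKM in PLC/PRF/5 (2.00, 1.32 to 3.07), and MASP2 at 1.20 and 1.62 FPKM (1.35, 1.03 to 1.77). MBL2, mannose-binding lectin, was lower in both lines under all 4 scalings, at 3.22 and 1.53 FPKM in HepG2 (0.475, 0.373 to 0.603) and 0.511 and 0.330 FPKM in PLC/PRF/5, where its interval held 1 (0.646, 0.357 to 1.13). C4A and C4B, near-identical copies whose fragments the counting could have divided, had PLC/PRF/5 ratios of 2.30 (1.66 to 3.23) and 1.74 (1.29 to 2.34), all values there under 1 FPKM.

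Among the terminal components, C8B, 10988 bases from C8A and partner of it in C8, stood at 1.53 and 0.989 FPKM in HepG2 (0.646, 0.445 to 0.932), near the C8A ratio, and had 3 fragments in each PLC/PRF/5 library. C8G, the third chain, differed from both: it was 8.54-fold higher in the PLC/PRF/5 control than in the HepG2 control (4.94 to 16.0), with 6.21 and 0.727 FPKM. C6 was at 1.17 and 0.830 FPKM in HepG2 (0.707, 0.518 to 0.963). CFD, the protease that cleaves factor B, was 4.82-fold higher in the PLC/PRF/5 control (2.60 to 9.75), the reverse of CFB.

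Several regulators were lower with the inhibitor in both lines under all 4 scalings, unlike CFI and C4BPA. Vitronectin (VTN), which blocks membrane insertion, stood at 26.4 and 18.0 FPKM in HepG2 (0.683, 0.617 to 0.756) and at 229 and 157 FPKM in PLC/PRF/5 (0.686, 0.663 to 0.710). Clusterin (CLU) had ratios of 0.758 (0.729 to 0.788) and 0.728 (0.700 to 0.758). CD46, a membrane cofactor of factor I, had 0.634 (0.608 to 0.661) and 0.663 (0.636 to 0.690). CD59, which stops C9 from assembling, had 0.687 (0.634 to 0.744) and 0.707 (0.647 to 0.773), and CPN1, the catalytic chain of the carboxypeptidase that trims anaphylatoxins, 0.659 and 0.713. SERPING1, the inhibitor of C1r and C1s, stood at 19.4 and 11.0 FPKM in PLC/PRF/5 (0.569, 0.518 to 0.623) while C1R and C1S were higher there, and its PLC/PRF/5 control value was 24.4-fold that of HepG2 (18.3 to 33.2). Others followed C4BPA in PLC/PRF/5: CPN2, the other carboxypeptidase chain, had ratios of 1.03 in HepG2 and 1.98 in PLC/PRF/5, and CD55, which dissociates C3 convertases, 1.13 and 2.12, the HepG2 ratio of each taking either direction with scaling.

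**Figure D4:**
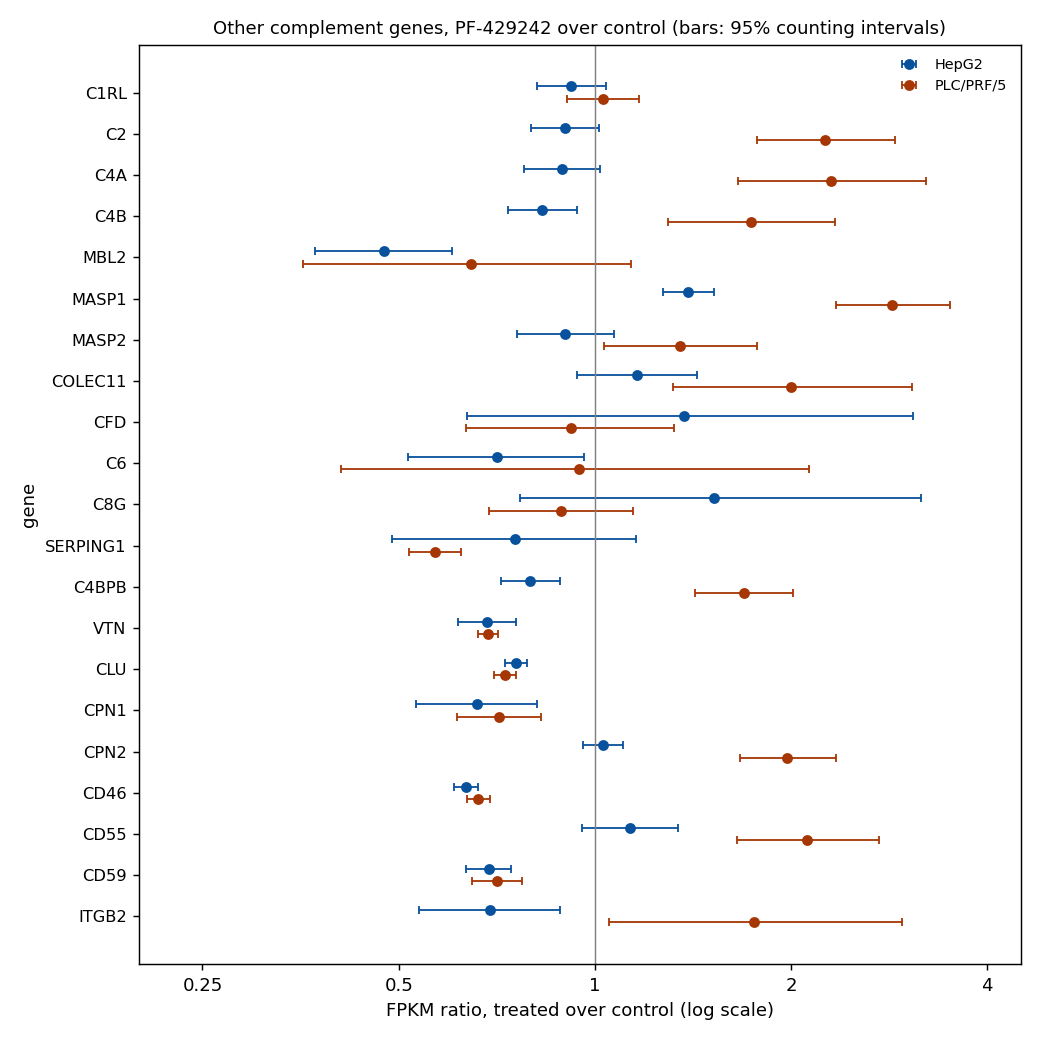
Ratio of FPKM with PF-429242 to control for 21 of the 23 other complement genes that reached 1 FPKM in at least 1 library, on a log axis, with 95% counting intervals as bars; C5AR1 and C8B, with the widest intervals, are not drawn. VTN, CLU, CPN1, CD46 and CD59 lie below 1 in both lines, and C2, MASP1, COLEC11, C4BPB, CPN2 and CD55 lie above 1 in PLC/PRF/5 with HepG2 ratios between 0.796 (C4BPB) and 1.39 (MASP1), of which those of C2, COLEC11, CPN2 and CD55 change side with the scaling.

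In the limma fit, 20 of these other genes were tested and none passed. An unadjusted p under 0.05 was found for 6 of the 20, beside 2488 of all 12838 genes, and the lowest adjusted p among them was 0.193. Of the 6, VTN, CLU, CPN1, CD46 and CD59 had log2 changes from -0.60 (CD46) to -0.42 (CLU), and MASP1 was at 0.54.

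Known regulators of liver complement genes were followed as well, and none differed by 2-fold or more in either line. In HepG2, 4 of 15 measured were above control and 11 below (median log2 ratio -0.05), where 17.6% of all genes were above 0 (median -0.17). In PLC/PRF/5, 7 of 16 were above and 9 below (median -0.05), where 29.1% of all genes were above 0 (median -0.13). IL6R, the interleukin-6 receptor, stood at 3.78 and 6.41 FPKM in control and treated HepG2 (1.70, 1.50 to 1.91) and at 8.43 and 11.7 FPKM in PLC/PRF/5 (1.39, 1.28 to 1.50). CEBPB, an acute phase transcription factor, had ratios of 1.48 (1.34 to 1.64) and 1.42 (1.31 to 1.54). CEBPA and the bile acid receptor NR1H4 had PLC/PRF/5 ratios of 1.47 (1.27 to 1.69) and 1.44 (1.20 to 1.74), and HepG2 ratios of 0.929 and 0.860. Most of the list was lower. IL6ST had ratios of 0.740 (0.713 to 0.767) in HepG2 and 0.878 (0.841 to 0.916) in PLC/PRF/5. STAT3 had 0.837 and 1.01, and JAK1 0.969 and 0.884.

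The genes whose centred log2(FPKM + 1) profile over the 4 libraries lay nearest to that of a member were sought among 8800 genes with at least 1 FPKM and 100 fragments in every library. For C3 these were ACAA1, SUPT16H, UBFD1, MBIP and TCAF1, at Euclidean distances of 0.0434 to 0.0563. ACAA1, a peroxisomal thiolase, stood at 10.7, 8.53, 4.16 and 4.12 FPKM in control and treated HepG2 and in control and treated PLC/PRF/5. For CFB they were RBM38, NGDN, ZMYND8, RAVER2 and PLPP6 (0.0299 to 0.0545), and for C1R OCEL1, HGS, C22orf46, STYXL1 and TSSC4 (0.042 to 0.0569). The pseudocount of 1 flattens the profiles of CFB and C1R, which lie near or under 1 FPKM: CFB differed 5.04-fold between the controls, whereas RBM38 stood at 20.6 and 9.71 FPKM there. These nearest genes are thus near only on the log2(FPKM + 1) scale, over 4 libraries.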

How the data were processed

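TopHat2 and the build GRCh38 are named in the submitters' processing notes; RNA selection, strandedness, counting program and annotation release are, in the sources used here, not given. The authors deposited FPKM for 32479 Ensembl genes in 4 libraries, 1 per group; no library was left out. Gene positions and symbols came from GENCODE 29, which held 32354 of the identifiers.

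Fragments were recovered as FPKM times gene length times library total. With union-exon lengths, 24452 genes (75.3%) gave whole fragments within 0.001; 7988 took a length from the ratios between libraries, which need not be unique, and 39 were unsolved (none above 17.9 FPKM). C1R, C4BPA and C9 are among those with a length taken from the ratios, so their fragments, and the widths of their intervals, rest on it. Recovered fragments exceeded the library totals by at most 2610, so a few genes were misassigned. Ratios carry 95% exact conditional binomial (Clopper-Pearson) intervals, levels exact Poisson intervals, and differences between lines a normal approximation on the log scale. A floor of 3 fragments was used where a count was 0.

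Log2 ratios within a comparison used a pseudocount of 1, so ratios of low genes are understated; FPKM ratios and the differences between lines used none. Counts at a 2-fold threshold took genes reaching 1 FPKM in either library, with no p-value. The shared effect came from limma 3.58.1 (R 4.3.3, lmFit and eBayes with trend), with Benjamini-Hochberg adjustment over every gene reaching 1 FPKM in at least 2 libraries and 1 residual degree of freedom. Fragment recovery and this fit were tested on simulated data, where the fit also called some unchanged genes with few fragments. Each named complement gene outside the 9 had to reach 1 FPKM in at least 1 library; The overlapping genes and the regulators and hepatocyte markers singled out were named after their values were seen. The alternatives were pseudocounts of 0.1 and 5, other filters and thresholds, the TPM scale, median-of-ratios scaling, totals over nuclear genes, limma without trend or block, and limma-voom. The members and gene lists were chosen with earlier results of these data known, and the motifs after the promoter sequences had been read. A few genes of the lists are not reported here one by one.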

Additional observations from a re-analysis of the deposited data

Results flagged for a closer look

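For 5 members the treated library lay below its control in HepG2 and above it in PLC/PRF/5. The share of all genes with both directions was not counted, so the 5 are a description. Of all genes with at least 1 FPKM, 10169 of 12347 were below control in HepG2, and 29.1% were above control in PLC/PRF/5. The difference of the log2 ratios, PLC/PRF/5 minus HepG2, was 2.11 for C1R (0.45 on log2(FPKM + 1)), 0.86 for C1S, 1.25 for CFI, 1.24 for C4BPA and 0.32 for CFB. With 1 library a group, these differences between the lines were not tested. The CFB ratios had counting intervals that held 1 in both lines and took either direction with the scaling, and C1R reached at most 0.491 FPKM in any library. C1S, CFI and C4BPA kept opposite directions under all 4 scalings, and so did C1R. This concerns the ratios alone, since counting intervals were taken on the deposited scale only. Over the scalings the C1S ratio was as near to 1 as 1.06 in PLC/PRF/5 and 0.858 in HepG2. The lowest C1R ratio in PLC/PRF/5 was 1.32.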

How the results depend on the processing

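The members' median log2 ratio in HepG2 stayed below 0 in every setting run. It was -0.41 with a pseudocount of 0.1, -0.62 on the TPM scale, -0.13 with median-of-ratios scaling and -0.15 with totals over nuclear genes. In PLC/PRF/5 the median was 0.41 with a pseudocount of 0.1, 0.14 with a pseudocount of 5, 0.14 with no filter, 0.38 with median-of-ratios scaling and 0.42 with totals over nuclear genes, but -0.068 among the 3 members with at least 5 FPKM and -0.16 on the TPM scale. At 1.5-fold, 1 member counted as higher in PLC/PRF/5. Between the controls the median was 2.04 and 0.66 with pseudocounts of 0.1 and 5, and 1.01 with no filter. It was 1.51 with at least 5 FPKM and 1.68 on the TPM scale. The count of members higher in HepG2 was 3 with a pseudocount of 5 and 3 with at least 5 FPKM. At 4-fold, 1 was higher and 0 were lower. The share of all genes was not taken for these counts, nor for that at 1.5-fold, so they are descriptions only. The shared fit called 4987 genes on the TPM scale and 0 in its other settings. The difference between the lines was 0.13 for C3 with median-of-ratios scaling and 0.45 for C1R on log2(FPKM + 1), and on that scale C8A turned from -0.66 to 0.11. The cause of these shifts was not tested, beyond the smaller number of members or other threshold that some settings impose. The shared fit pairs each treated library with the control of its line; without that block it also called 0 genes, and the adjusted p of C8A was 1.0 in place of 0.205. The labels give no replicate numbers, and with 1 library a group no replicate could be left out. Depth limits C9 (1 fragment in all), C1R (16 to 49 fragments) and C8A in PLC/PRF/5 (36 and 11).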
